A study of Rattus norvegicus with 67 samples.

Results

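Normal endometrium of HFD rats given liraglutide was compared directly with that of HFD rats whose diet was restricted, in 22 of the 65 libraries with values. The 22 were all the libraries of sequencing batch 2 that the labels give as normal tissue, HFD and either LIR or RES, with 12 LIR libraries from 9 rats and 10 RES libraries from 10 rats. Libraries with the same animal number within an intervention were taken as 1 rat, so that LIR rat 19 gave 3 libraries (S54, S62, S63) and LIR rat 20 gave 2 (S55, S64). All of them were female BDII/Han rats, a strain that develops endometrial cancer spontaneously, and all ate a fat-rich diet (HFD, 60% of kcal from fat) from 3 months of age. The RES rats ate freely until 12 months and received a restricted amount of the same diet from 12 to 15 months. The LIR rats kept free access to the HFD and were injected under the skin once a day with liraglutide, raised over 8 days from 0.01 to 0.24 mg/kg/day. The age at which injections began and the age of the LIR rats at the end are not given in the sources used here, while the RES and NO rats were 15 months old. The labels call the rats age-matched, but a difference in age between LIR and RES cannot be told apart from the interventions. Rats on the HFD with no intervention (NO, 4 normal libraries of the same batch) were left out of the contrast and are shown only for reference. For the named transcripts, levels are also given for 4 HFD rats of sequencing batch 1 with no intervention. Rat 14 is listed in both LIR and RES, and rats 16 and 17 in both LIR and NO, so that these numbers may or may not be the same animals. For the same reason libraries with 1 number within LIR may come from more than 1 animal, which was not tested. LIR rats 19 and 24 and RES rats 2 and 9 also gave tumour libraries.

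Liraglutide is a long-acting agonist of the receptor for glucagon-like peptide 1, a gut hormone released after meals that raises insulin secretion and lowers food intake. Diet restriction lowers energy intake directly, and the labels give weight loss as the aim of both interventions. No body weight of these rats was analysed here. The endometrium, the lining of the uterus made of a surface and glandular epithelium over a stroma, responds to ovarian steroids and changes through the reproductive cycle, and obesity is a known risk factor for its cancer. The direct contrast asks whether the normal lining has a different transcriptome after the drug than after restriction of the same diet. The cycle stage of the rats is not given in the sources used here.

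The values are estimated counts per Ensembl transcript, which stand for read pairs of polyadenylated RNA divided among the transcripts they fit. Counts of isoforms and near-identical transcripts are therefore uncertain. No table used here pairs these transcripts with genes, so results are given by counts and classes of transcripts, with 4 transcripts by identifier, and the labelled tissue could not be checked against marker genes. In whole tissue, fewer cells of a type and less RNA per cell cannot be told apart. The 22 libraries held 16185536 to 20029879 estimated counts, and nothing in the labels says that they were processed in separate sets within batch 2.

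Before any transcript was tested, the libraries were compared with each other over the 20047 transcripts used. Principal components were computed over the 22 libraries from log2 CPM scaled by the median of ratios. The first component held 22.8% of the variance and the second 18.2%. On the first, 9 of the 10 RES libraries had scores above 0, from 3.33 to 53.9, and RES rat 6 had -33.9. The 4 LIR libraries S53, S54, S55 and S56, from rats 18, 19, 20 and 21, had scores of 33.96, 42.3, 5.55 and 47.1, which lie among those of RES. The other 8 LIR libraries had scores from -68.5 to -9.48, and the 4 NO libraries, projected onto the same axis, lay from -60.0 to -34.8. The LIR libraries thus fell on both sides of the axis, with libraries of 1 rat number on either side. Rat 19 had 42.3 in S54 against -45.7 and -52.1 in S62 and S63, and rat 20 had 5.55 in S55 against -39.7 in S64. Animal numbers rose from 2 to 21 over S36 to S56 and started again at 14 in S57. They were read here as 2 series, which the labels do not name. On that reading, S53 to S56 belong to the first series of animal numbers, as all RES libraries do. The other 8 LIR libraries belong to the second. What sets the series apart was not tested. Whether the intervention labels and animal numbers of S53 to S56 are right was not tested, and every value of the contrast with and without them rests on those labels. On the second component, S64 stood apart at -119.7, against -31.5 to 31.3 for every RES library.

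**Figure D1:**
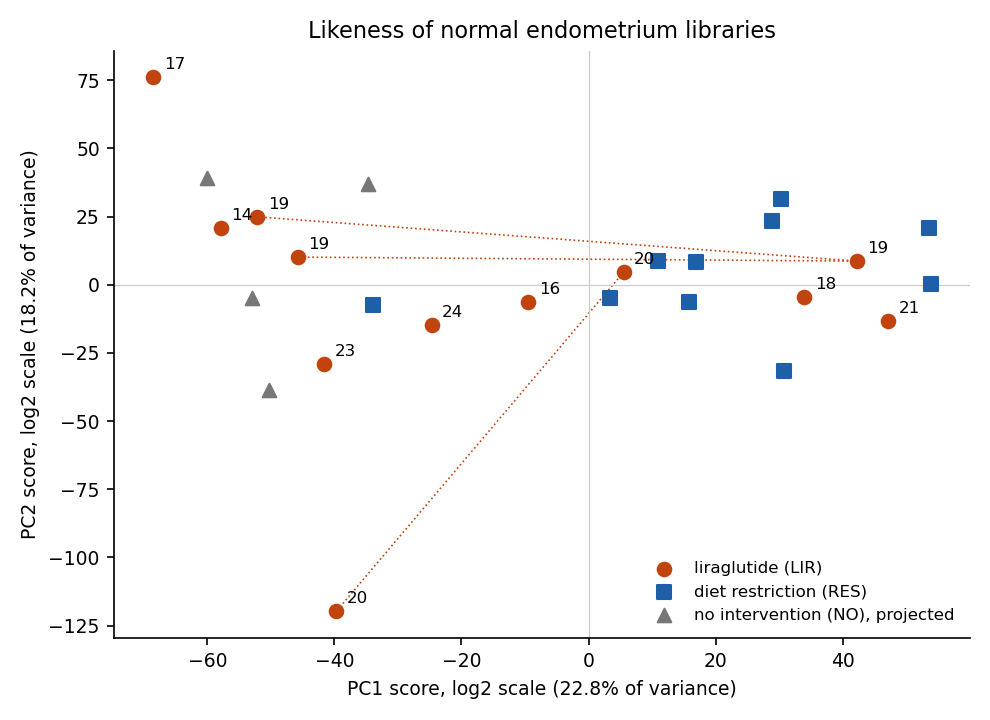
Scores of the normal endometrium libraries on the first (x axis) and second (y axis) principal components, both on a log2 scale. Circles are LIR libraries with their rat numbers, squares RES and triangles NO, and dotted lines join libraries of 1 rat number. Of the LIR libraries, 4 lie to the right among RES, 8 lie to the left of 0, and rats 19 and 20 have libraries on both sides.

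Likeness was also measured as the root mean square (RMS) difference in log2 CPM between 2 libraries, with small values for libraries that are alike. Pairs of RES libraries had a median RMS difference of 0.68, pairs of LIR libraries 0.87 and pairs of 1 LIR and 1 RES library 0.78. By the median over all pairs, the LIR libraries were thus less alike among themselves than they were to RES. This did not hold for each library, since the nearest library of the 12 LIR libraries was LIR for 7, RES for 3 and NO for 2. For S53, S54, S55 and S56 the median RMS difference from RES libraries was 0.67, 0.62, 0.67 and 0.66, and from LIR libraries of other rats 0.86, 0.77, 0.76 and 0.88. Libraries with the same rat number, which may or may not be 1 animal, were not always alike. S62 and S63 of LIR rat 19 differed by 0.59, with 5.29% of 16403 transcripts (mean log2 CPM of 1 or more) at least 2-fold apart. S54, with the same rat number, differed from S62 by 0.87 and from S63 by 0.91, with 15.2% and 17.3% at least 2-fold apart. S55 and S64 of LIR rat 20 differed by 1.11, with 19.9% at least 2-fold apart. S49 and S57, which carry number 14 in RES and in LIR, differed by 0.86, with 14.8% at least 2-fold apart. No pair was close enough to be the same library deposited 2 times, the smallest RMS difference being 0.52, between S46 and S55.

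The same libraries differed in depth. S53 to S56 held 16715235 to 17497531 estimated counts and the other LIR libraries 17762020 to 20029879, while RES libraries held 16185536 to 18426801 and NO libraries 17890498 to 18922772. By rat, the total was 18035423 ± 767827 in LIR (SD, n = 9) and 17310853 ± 743706 in RES (SD, n = 10), a difference of 724570 (two-sided exact permutation test over rats, p = 0.0534, adjusted p = 0.134 over 5 library measures). The number of transcripts with at least 5 estimated counts was lower in LIR, at 19878 ± 227 (SD, n = 9), than in RES, at 20159 ± 170 (SD, n = 10), a difference of -281 for LIR minus RES (exact permutation p = 0.00596, adjusted p = 0.0298). Rats ran from 19472 to 20201 in LIR and from 19962 to 20490 in RES, with 5 of the 9 LIR rats below every RES rat, and the NO rats ran from 19310 to 20114. Without S64, which had the lowest number (18762) of the 22 libraries and the highest total, the difference was -202 and did not pass (exact permutation p = 0.0252, adjusted p = 0.126). It did not pass either over libraries in place of rats (permutation test, adjusted p = 0.0764), without the rats that also had tumours (exact permutation, adjusted p = 0.158), or in 7 of the 19 tests that left out 1 rat. The 100 most abundant transcripts took 27.5% ± 2.77 of the counts in LIR and 26.1% ± 2.09 in RES (exact permutation p = 0.214, adjusted p = 0.357). Mean transcript length weighted by counts was 2664 ± 83.4 and 2628 ± 78.9 bases (exact permutation p = 0.356, adjusted p = 0.445), and mean fragment length, read from the effective lengths, was 169.1 ± 3.88 and 169.2 ± 2.49 bases (exact permutation p = 0.953, adjusted p = 0.953). Of the 5 measures, the number of transcripts detected passed with all rats, though not in 10 of 23 alternatives, and the other 4 did not pass.

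**Figure D2:**
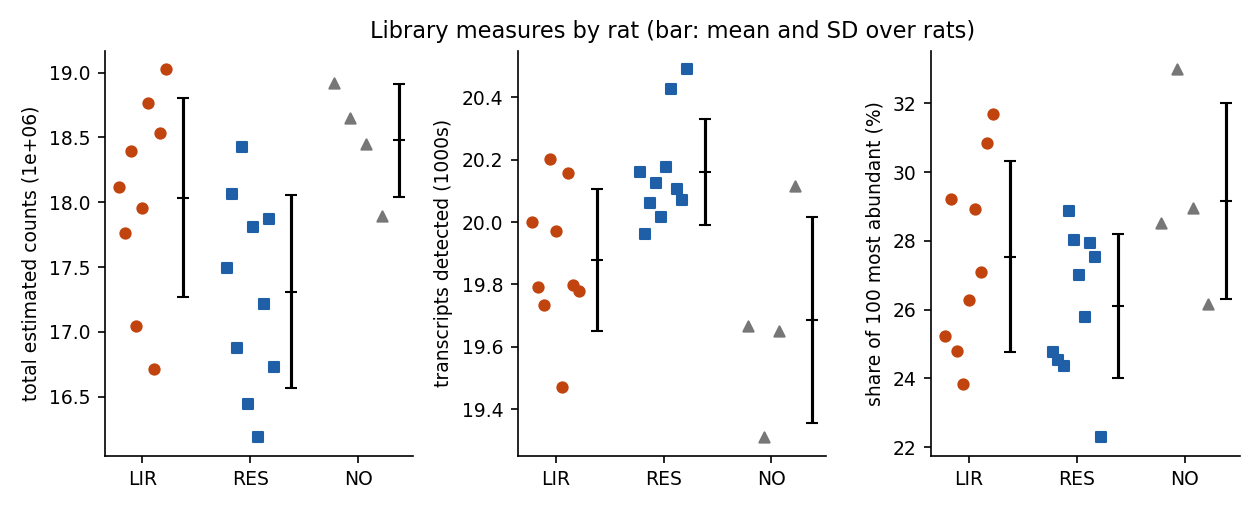
Total estimated counts (in units of 1e+06), transcripts with at least 5 estimated counts (in units of 1000) and share of the 100 most abundant transcripts (percent) on the y axes, 1 point per rat, for LIR (9 rats), RES (10) and NO (4), with bars for the mean and SD over rats; the axes do not start at 0. In the middle panel 5 of the 9 LIR rats lie below the lowest RES rat at 19962, and the groups overlap in all 3 panels.

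No transcript passed the test between LIR and RES. Of 20047 transcripts tested with limma, 0 (0%) had an adjusted p under 0.05, and the smallest adjusted p was 0.0804. An unadjusted p under 0.05 was found for 3938 transcripts (19.6%), where 1002 are expected over both directions together when no transcript differs. Transcripts can vary together across libraries, so that the excess over 1002 is no measure of a difference between the interventions. Of the 3938, 1917 (9.56% of those tested) were at higher levels in LIR and 2021 (10.1%) at lower levels. These 3938 did not pass the correction for the number of transcripts. Their fitted differences were mostly small, with a median size of 0.42 on the log2 scale (1.34-fold), and 119 were above 1 and 331 below -1. The single differences in this set reached 3.62 and -4.52. The share at higher levels among them was 48.7%, and it moved to 21.7% when libraries were scaled by their size only and to 60.2% in edgeR on counts summed per rat.

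The outcome of the correction depended on the tool. The quasi-likelihood test of edgeR on counts summed per rat called 0 transcripts at an adjusted p under 0.05, with 3954 at an unadjusted p under 0.05. DESeq2 on the same sums called 844 (4.21%), 620 higher and 224 lower in LIR, and 796 of the 844 were among the 3938 of limma. The standard error of the log2 fold change had a median of 0.19 over the tested transcripts, and the 95% interval lay within a 2-fold change in either direction for 14203 (70.8%). By mean level in TPM (a level per transcript length and library total), this share was 25.5% of transcripts below 1 TPM, 65.4% at 1 to 10 TPM, 89.9% at 10 to 100 TPM and 89.2% at 100 TPM and over, so that the bound does not cover most scarce transcripts. Over all tested transcripts the log2 fold change had a median of -0.02, a 5th percentile of -0.82 and a 95th percentile of 0.61.

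The outcome also depended on the 4 LIR libraries that lay among RES. With S53 to S56 left out, limma called 4417 of 20033 transcripts (22.0%) at an adjusted p under 0.05, 2213 higher and 2204 lower in LIR, and 3028 of these were among the 3938 found with all libraries. The 4 libraries were left out because of their likeness to RES, so that a larger difference from RES was built into the choice, and the count is no support for a difference between the interventions. Without them, every RES library is of the first series of animal numbers and every LIR library of the second, so that series and intervention cannot be told apart. Leaving out S64 alone gave 0 called and 3335 at an unadjusted p under 0.05. Leaving out each of the 19 rats in turn gave 0 called in 18 fits and 26 without LIR rat 21, one of the rats of those 4 libraries. The number at an unadjusted p under 0.05 ran from 2973 without RES rat 10 to 4870 without LIR rat 21. With the total of each library as a term in the model, 0 were called and 1498 had an unadjusted p under 0.05, against 3938 without it, and the part of depth in these differences was not tested further.

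**Figure D3:**
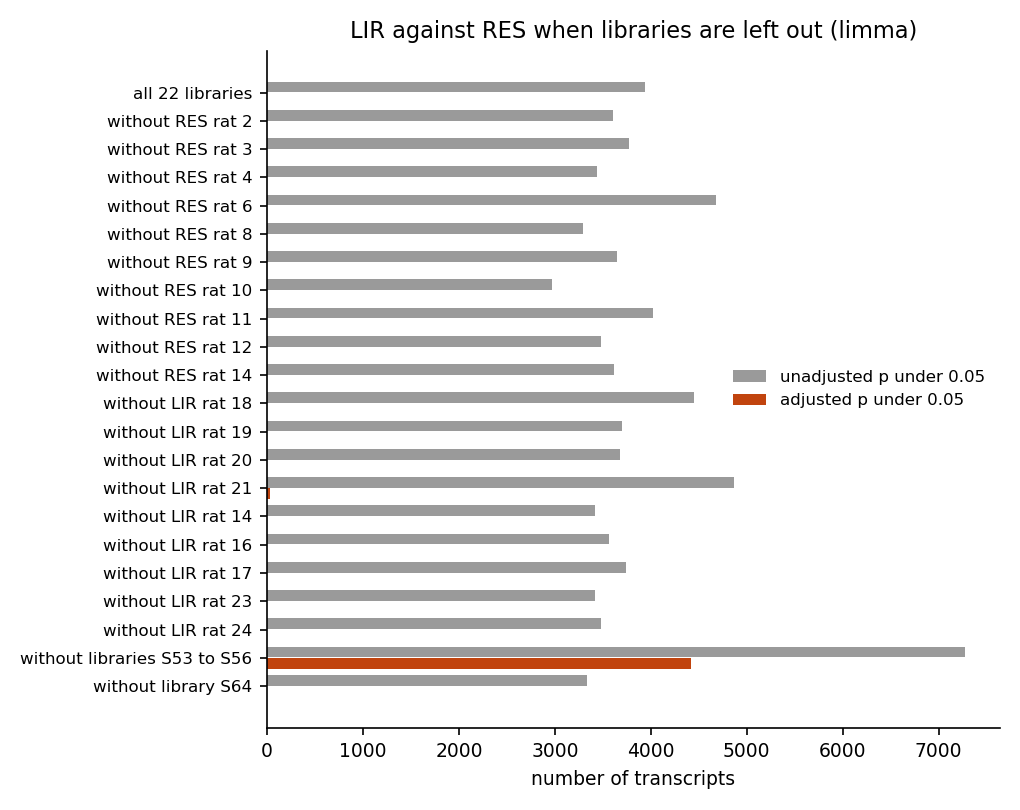
Number of transcripts (x axis) at an unadjusted p under 0.05 (grey) and an adjusted p under 0.05 (orange) in limma, with all 22 libraries, with each rat left out, and with libraries S53 to S56 or S64 left out (y axis). Leaving out 1 rat keeps the grey bars between 2973 and 4870, and a long orange bar (4417) appears where S53 to S56 are left out.

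With median-of-ratios scaling, abundant and scarce transcripts leaned in different directions. Levels are given here as mean TPM over the 22 libraries. Of 1096 transcripts with a mean of at least 100 TPM, 220 (20.1%) had an unadjusted p under 0.05 and a higher level in LIR, and 96 (8.76%) a lower one. Of 7920 with 10 to 100 TPM these were 1128 (14.2%) and 804 (10.2%). Of 8244 with 1 to 10 TPM they were 498 (6.04%) and 893 (10.8%), and of 2787 below 1 TPM they were 71 (2.55%) and 228 (8.18%). The share at higher levels in LIR thus grew with abundance, while the share at lower levels stayed between 8.18% and 10.8%. The median log2 fold change went from -0.14 below 1 TPM through -0.07 and 0.02 to 0.09 at 100 TPM and over, small beside the median standard errors of 0.45, 0.24, 0.12 and 0.13 for a single transcript. On plain differences of rat means of log2 CPM, the medians were -0.05 below 1 TPM and 0.07 at 100 TPM and over. They were -0.04 and 0.05 without S64, -0.09 and 0.16 without S53 to S56, and -0.05 and 0.07 with TMM scaling. With scaling by library size only, the median log2 fold change over all tested transcripts was -0.11, against -0.02. That fit was not divided by level, so the direction of each class under it was not tested. The number of transcripts detected was lower in LIR in the same libraries, and its part in this lean was not tested.

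**Figure D4:**
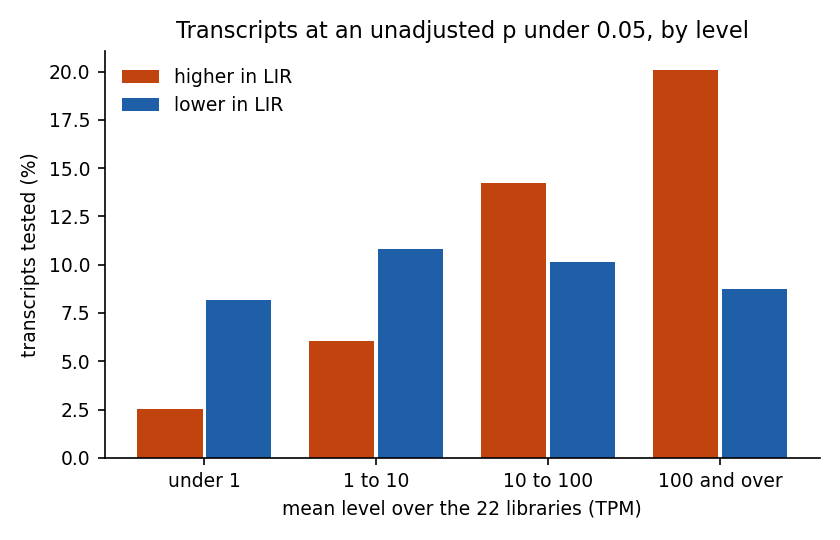
Share of tested transcripts (percent, y axis) at an unadjusted p under 0.05 that were higher or lower in LIR than in RES, by mean level over the 22 libraries (TPM, x axis). The bars for higher levels in LIR go from 2.55% to 20.1% with abundance, and those for lower levels stay between 8.18% and 10.8%.

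By length, the shares were more even. Transcripts of 1000 to 2000, 2000 to 4000 and at least 4000 bases had 9.73%, 10.3% and 10.2% at higher and 9.62%, 9.58% and 10.7% at lower levels in LIR. Of 701 transcripts under 500 bases, 6.70% were at higher and 10.3% at lower levels, and of 2244 with 500 to 1000 bases 6.42% and 12.0%. The 100 most abundant transcripts by counts, all of which were tested, had log2 fold changes from -0.96 to 1.14 with a median of 0.04. An unadjusted p under 0.05 was found for 41 of them (22 higher and 19 lower in LIR), against 19.6% of all tested transcripts, and 0 were called. Among transcripts at 100 TPM and over, 20.1% were higher and 8.76% lower at that threshold. Their median standard error was 0.13, against 0.19 over all tested transcripts.

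The spread within the groups is given as a description, with no test over rats. The SD of log2 CPM over rats had a median of 0.37 in LIR and 0.32 in RES, and it was larger in LIR for 12419 of the 20047 transcripts (61.9%). Among the 16403 transcripts with mean log2 CPM of 1 or more the medians were 0.34 and 0.29. The share larger in LIR was 63.3% without S64, 54.2% without S59 of rat 17 (which had the highest score of the 22 libraries on the second component, 76.0), 55.8% without both and 62.6% without S53 to S56. The correlation that limma estimated between libraries with the same rat number was -0.0036. It was 0.111 without S64, 0.103 without rat 20 and 0.199 with total counts as a term. S62 and S63 of rat 19 were each other's nearest library.

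The 4 transcripts that came nearest to passing, 2 higher and 2 lower in LIR among those whose mean log2 CPM was 1 or more, are given next with their levels. None passed in limma with all libraries and median-of-ratios scaling. With scaling by library size only, ENSRNOT00000049474.6 passed (limma, adjusted p = 0.0389). The 4 were chosen after their values were seen, so that the permutation tests on them are not adjusted for that choice. All levels are CPM scaled by the median of ratios, averaged over the libraries of a rat. They are named by Ensembl identifier because their genes could not be named.

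ENSRNOT00000011442.6, a transcript of 3360 bases, lay at 30.01 to 45.04 CPM in the 9 LIR rats (median 35.7) and at 23.2 to 32.2 CPM in the 10 RES rats (median 25.99). Of the LIR rats, 8 lay above every RES rat, and the lowest LIR rat (21) lay inside the RES range. Library S54 of rat 19, at 30.3 CPM, also lay inside it, so that rat 19 lay above it only by averaging. The log2 fold change was 0.44 (standard error 0.08, 95% interval 0.27 to 0.60, adjusted p = 0.0874 in limma, two-sided exact permutation test over rats p = 6.5e-05). Libraries S53 to S56 had 32.5, 30.3, 34.6 and 30.01 CPM and the other LIR libraries 33.1 to 45.04, while the NO rats lay at 36.2 to 47.4. The NO rats thus lay above every RES rat.

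ENSRNOT00000003414.6, of 3167 bases, lay at 41.7 to 53.9 CPM in the LIR rats (median 48.5) and at 32.2 to 43.9 CPM in the RES rats (median 35.1). Of the LIR rats, 6 lay above every RES rat, and 8 of the RES rats lay below every LIR rat. Library S55 of LIR rat 20, at 43.2 CPM, lay inside the RES range, so that rat 20 lay above it only by averaging. The log2 fold change was 0.37 (standard error 0.07, 95% interval 0.22 to 0.52, adjusted p = 0.127 in limma, exact permutation p = 0.000152). The 4 NO rats, with a median of 56.8 and a highest level of 66.4 CPM, lay above every RES rat here too. The HFD rats of batch 1 with no intervention did not, at 31.9 to 40.3 CPM (median 38.6), which overlaps the RES range. S53 to S56 had 48.3, 41.9, 43.2 and 41.7 CPM.

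ENSRNOT00000049474.6, of 1611 bases, lay at 5.05 to 10.2 CPM in the LIR rats (median 7.32) and at 9.56 to 16.4 CPM in the RES rats (median 11.3). Of the LIR rats, 8 lay below every RES rat, and the highest (21) lay inside the RES range. Library S54 of rat 19, at 9.72 CPM, also lay inside it, so that rat 19 lay below it only by averaging. The log2 fold change was -0.74 (standard error 0.13, 95% interval -1.01 to -0.48, adjusted p = 0.0804 in limma, exact permutation p = 3.25e-05). NO rats 15, 16 and 17 had 5.80, 6.58 and 8.96 CPM, below every RES rat, and NO rat 13 had 14.9, inside the RES range. The HFD rats of batch 1 with no intervention lay at 4.96 to 18.9 CPM. S53 to S56 had 5.11, 9.72, 6.27 and 10.2 CPM.

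ENSRNOT00000026809.5, of 1788 bases, lay at 3.12 to 5.93 CPM in the LIR rats (median 4.60) and at 5.74 to 11.8 CPM in the RES rats (median 7.64). Of the LIR rats, 8 lay below every RES rat, and the rat means overlapped between 5.74 and 5.93 CPM. Single LIR libraries reached further into the RES range, up to 7.74 CPM in S55, so that this separation rests on averaging libraries by rat number. The log2 fold change was -0.78 (standard error 0.16, 95% interval -1.11 to -0.45, adjusted p = 0.127 in limma, exact permutation p = 3.25e-05). The NO rats, at 1.63 to 3.90 CPM, lay below every RES rat. So did the HFD rats of batch 1 with no intervention, with a median of 2.36 and a highest level of 3.64 CPM. S53 to S56 had 4.63, 6.14, 7.74 and 5.69 CPM, and the other LIR libraries 3.12 to 5.93.

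DESeq2 gave all 4 an adjusted p of 0.00078. In limma all 4 passed without LIR rat 21, with adjusted p from 0.0262 to 0.0497, and without S53 to S56, with adjusted p from 0.000422 to 0.00144, the libraries left out for their likeness to RES. Each kept its direction in every other fit that was run, leaving out any 1 rat included. The RES libraries are common to any reading of LIR and of NO against RES, so that levels of NO are given side by side and not as a second result.

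**Figure D5:**
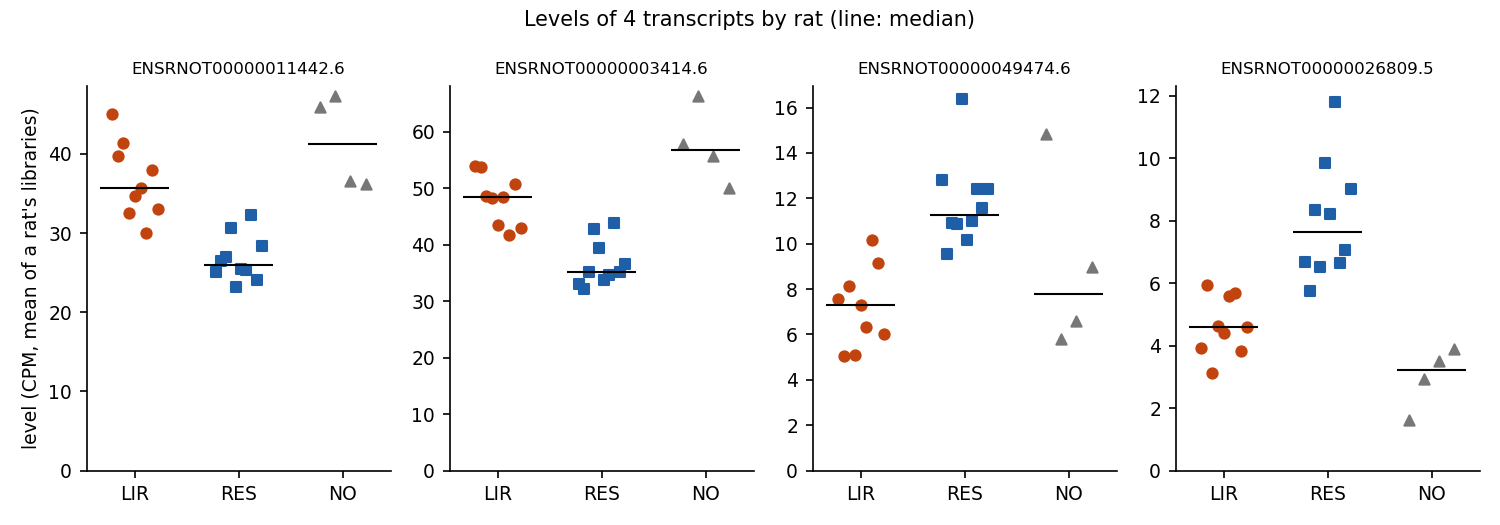
Levels (CPM, y axis starting at 0) of the 4 transcripts, 1 point per rat, for LIR (9 rats), RES (10) and NO (4), with lines at the medians. The LIR medians of 35.7 and 48.5 CPM in the 2 left panels lie above those of RES, and the LIR medians of 7.32 and 4.60 CPM in the 2 right panels lie below; the LIR and RES ranges overlap in all 4.

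Tumours of the same interventions were few, with 3 libraries from 2 rats in LIR and 3 libraries from 2 rats in RES, and these rats also gave normal libraries. The difference of tumour means had the same sign as in normal endometrium for 2046 of the 3938 transcripts with an unadjusted p under 0.05 (51.96%) and for 10177 of all 20047 tested (50.8%). Leaving out 1 of the 4 rats moved the 51.96% to between 42.7% (without LIR rat 24) and 60.7% (without LIR rat 19). With 2 rats a group no test was made.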

How the data were processed

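RNA of rat endometrium was selected by the authors for polyadenylated molecules and sequenced as read pairs, which were trimmed with BBDuk and assigned to transcripts of Ensembl release 94 (Rnor_6.0) by the pseudo-aligner Kallisto. Rnor_6.0 and sleuth are named in the submitters' notes on processing, and versions are not given in the sources used here. For library preparation the methods give a circularisation protocol and also a stranded TruSeq kit. The authors deposited an estimated count for each transcript in each library, with no scaling between libraries. Deposited TPM values served for abundance classes and 1 alternative, and deposited effective lengths for fragment length. Of 67 samples in the labels, 65 have values in the table used here.

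Transcripts were tested where 5 or more estimated counts were found in 47% or more of the 22 libraries. The test was limma 3.58.1 (R 4.3.3) after voom with median-of-ratios scaling, a correlation between libraries of a rat estimated 2 times with duplicateCorrelation, and robust empirical Bayes moderation. Each p was adjusted by the Benjamini-Hochberg method at 0.05. NO libraries were not in the fit. For edgeR 4.0.16 and DESeq2 1.42.0, estimated counts were added up per rat and rounded. Each of these fits was first tried on simulated counts. Principal components and RMS differences used log2(CPM + 0.5). Library measures and named transcripts were tested over rats by two-sided exact permutation over the 92378 divisions of 19 rats into 9 and 10. Labels do not say whether libraries of a rat came from separate tissue pieces.

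The comparison, the lists and the tests were chosen with earlier results of these data known. The rule for named genes took called transcripts, of which there were none, and no gene or marker list could be used without symbols. Alternatives were other tools, scalings, filters, terms and sets of libraries, and fits without 1 rat. The alternatives without S53 to S56, without S64 and with sample weights, the spread without S59 or S64, and the counts at an unadjusted p under 0.05, were added after seeing the data.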

Additional observations from a re-analysis of the deposited data

Results flagged for a closer look

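Over 27 combinations of a group of rats with a library measure or a named transcript, 1 rat stood apart from its group by Dixon's test at 95%, and chance flags about 1 in 20. The mean fragment length of RES rat 3 was 162.8 bases, the lowest of the 10 RES rats, and the next was 168.1 bases, a gap of 0.61 of the whole range. With fragment length as a term in the limma model, 0 transcripts were called and 3831 had an unadjusted p under 0.05, and without RES rat 3 these numbers were 0 and 3776.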

How the results depend on the processing

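The count of 0 transcripts called by limma became 844 in DESeq2, 1 (ENSRNOT00000049474.6) with scaling by library size only and 4417 without S53 to S56, and it was 0 under the other alternatives that did not leave out a single rat. With 1 rat left out it ran from 0 to 26, the 26 without LIR rat 21. The number at an unadjusted p under 0.05 (3938) became 1498 with total counts as a term and 7274 without S53 to S56. Without 1 rat it ran from 2973 to 4870. The difference of -281 in transcripts detected did not pass at -299.5 over libraries in place of rat means, -277.9 without tumour-bearing rats or -202.2 without S64, nor without LIR rat 16, 17, 20, 23 or 24 or RES rat 10 or 14, and ran from -321.5 to -230.4 with 1 rat left out. The difference in total counts passed at 1313413 without S53 to S56 (exact permutation over rats, adjusted p = 0.00553) and without LIR rat 21, and ran from 599535 to 889594 with 1 rat left out. The difference of -0.067 bases in fragment length, far inside the spread, became 0.22 over libraries, 0.72 without tumour-bearing rats and 0.12 without S53 to S56, and ran from -1.02 to 0.66 with 1 rat left out. The share of transcripts with a larger SD in LIR (61.9%) became 63.3% without S64, 54.2% without S59, 55.8% without both and 62.6% without S53 to S56. The same-sign share in tumours ran from 42.7% to 60.7% with 1 rat left out. In limma the 4 named transcripts passed without LIR rat 21 and without S53 to S56. The cause of these changes was not tested, except that S53 to S56 were chosen for their likeness to RES. The differences in the share of the 100 most abundant transcripts and in length kept their direction and did not pass under any alternative that was run.

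The correlation within rats could not be estimated without LIR rat 19, without tumour-bearing rats or without S53 to S56, and libraries were then taken as independent. Sums per gene were not run for lack of a table of genes, and the place of NO between the groups was not counted since 0 transcripts were called. No paired analysis was possible because LIR and RES share only the number 14.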
